A study of Mus musculus with 15 samples.

Results

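Ileum from mice that had lost TAK1 in the intestinal epithelium (TAK1 IEC-KO, labelled HO) was compared with ileum from mice carrying floxed Tak1 alleles (Tak1f/f, labelled WT). Each group held 5 libraries, so 10 of the 15 libraries of the series entered the comparison, and the other 5 added a kinase-dead Ripk1 allele to the TAK1 loss. Both groups fall under 1 treatment protocol, in which tamoxifen was given intraperitoneally on 3 days at 80 mg/kg, and tissue was taken 3 days post induction. The labels name whole ileum as the tissue and do not name the Cre driver, strain, age, sex or litter. RNA came from the whole wall, so fewer cells of a type and less RNA per cell cannot be told apart. Genes entered the comparison with at least 1 FPKM (reads per length of gene and total reads of the library) in at least 5 of the 10 libraries, which 10972 of the 25329 genes in the table did. The series asks what the kinase activity of RIPK1 does in ileitis, and HO against WT is the comparison without the kinase-dead allele.

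TAK1, the product of Map3k7, is a kinase that receives signals from TNF, interleukin-1 and Toll-like receptors through its partners TAB1, TAB2 and TAB3. It activates the IKK complex, which releases NF-kB, and the p38 and JNK kinases. It also phosphorylates RIPK1 and so restrains the caspase-8 and MLKL arms of cell death that follow TNF receptor engagement. In the ileum the epithelium is renewed from stem cells at the crypt base, beside Paneth cells that secrete antimicrobial peptides, and enterocytes mature as they move up the villus.

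The depth of the 10 libraries ran from 38724618 to 40589889 reads. The epithelial markers Epcam, Vil1 and Cdh1 summed to 2330 to 2984 FPKM in HO and 2607 to 3066 FPKM in WT libraries. Some libraries stood apart from their group. HO 1 held transcripts of the proximal small intestine: its summed Gata4, Fabp1 and Lct was 2647 FPKM, against 11.7 FPKM or less in the other 9 libraries, and Fabp6, the ileal bile acid binding protein, was at 0.0491 FPKM. In HO 2 and HO 4 the summed B cell markers Ms4a1, Cd79a and Cr2 were at 31.4 and 75.2 FPKM, against 4.08 FPKM or less in the other 8 libraries, with Cr2 at 0 in HO 1 and HO 5. WT 1 and WT 2 were low in smooth muscle markers. Counts are therefore also given without HO 1, HO 2 and HO 4 and without WT 1 and WT 2. Map3k7 stood at 6.88, 9.04, 8.63, 9.41 and 9.34 FPKM in HO 1 to HO 5, against 9.39, 11.01, 10.4, 11.2 and 9.69 FPKM in WT 1 to WT 5. The groups overlapped, and the difference did not pass the test (log2 change -0.24, SE 0.11, adjusted p = 0.0786). Its direction turned with scaling (0.05 with median-of-ratios factors), and the FPKM of a whole gene in whole tissue does not show whether the floxed part was lost in the epithelium.

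Calls rest on limma-trend over all genes tested, with Benjamini-Hochberg adjustment and a threshold of 0.05 on the adjusted p. Of the genes tested 51.1% were called: 1240 were called higher in HO (11.3% of those tested) and 4368 lower (39.8%). Of these, 446 were at least 2-fold higher (4.06%) and 828 at least 2-fold lower (7.55%). HO and WT libraries did not overlap for 695 genes higher in HO (6.33%) and 3275 genes lower (29.8%). The median change over all genes tested was -0.25 on the log2 scale, and 0.01 after division by median-of-ratios factors, which were 0.785 to 0.969 in HO and 1.06 to 1.21 in WT libraries. The share of reads taken by the 10 most abundant genes was 11.4% to 17.3% in HO and 8.57% to 12.4% in WT libraries. Because of that shift, "rose" and "fell" are used below only of genes that also passed, in the same direction, under 3 other scalings (median-of-ratios, quantile and voom on recovered reads). There were 1230 such rises (11.2%) and 2217 such falls (20.2%), the shares against which each list is read. Counts called with libraries left out come from the FPKM fit alone, without the other scalings, so they can exceed the rises or falls. Over all genes, 922 were called higher and 3115 lower without HO 1, HO 2 and HO 4. Without WT 1 and WT 2 these counts were 663 and 3174. Of the genes tested 44 passed the filter through HO libraries only and 186 through WT libraries only, so these had to differ. List counts below include such members, whose direction was set by the filter. Among genes named below, those for HO are Ccl2, Ccl7, Ly6g, Mapk11, Mmp3, Steap4 and Tnf. Those for WT are Ccr9, Cd177, Ceacam10, Ces1e, Chaf1b, Ckap2, Cyp2u1, Gsdmc3, Lgr5, Steap3 and Tpx2.

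**Figure D1:**
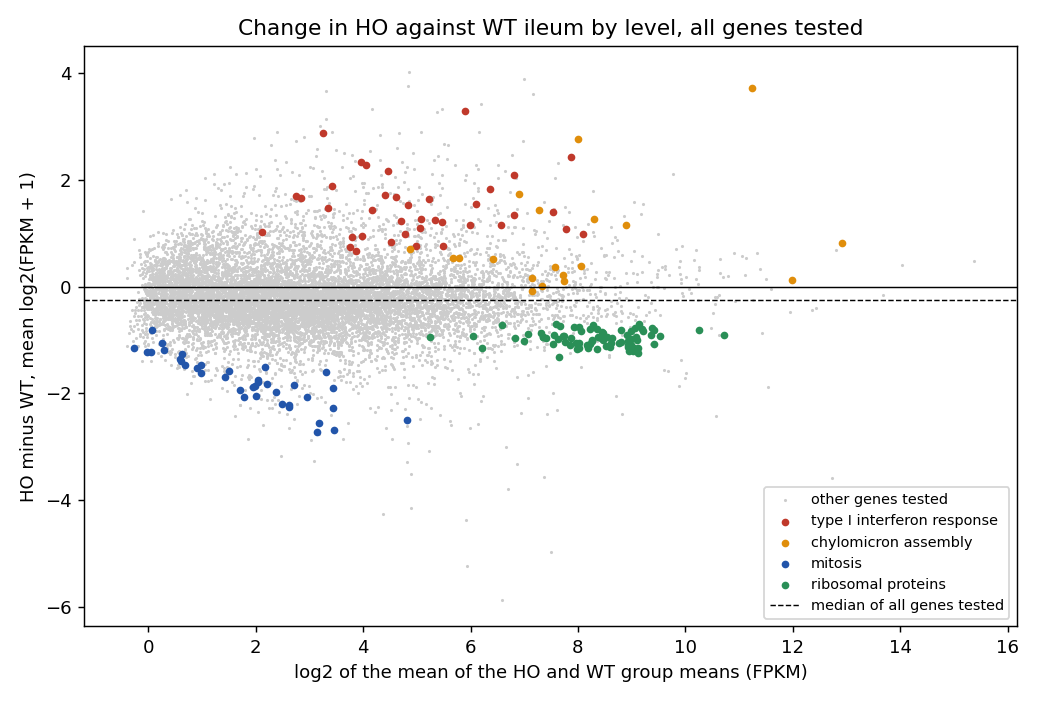
Each point is 1 of the 10972 genes tested, by its mean level (x, log2 FPKM) and its change in HO against WT (y, log2). The dashed line marks the median change of -0.25. The 38 interferon response genes lie above 0, and the 37 mitosis and 77 ribosomal protein genes lie below the dashed line.

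Genes of the interferon response rose in HO as a body. All 38 members tested of the type I interferon response list were called higher under every scaling, with a median change of 1.37, and 34 of them had separate groups. Among the guanylate-binding proteins and immunity-related GTPases, which coat and rupture pathogen vacuoles, 16 of 17 rose, with a median of 2.17. Of 20 genes of MHC class I and the immunoproteasome, which present peptides to CD8+ T cells, 16 rose and 4 were not called. Without HO 1, HO 2 and HO 4 the 3 lists had 34, 16 and 12 members called higher, and without WT 1 and WT 2 they had 33, 16 and 12.

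Promoters of interferon response genes hold copies of the interferon-stimulated response element, which interferon regulatory factors and the STAT complex bind. Those of Isg15 and Bst2 are shown because both rose and are the list members with the smallest p among those that hold the motif. Each runs from 250 bases before to 50 after the start of the gene (RefSeq, GRCm38.p6, minus strand), and capitals mark matches to GAAANNGAA, a core of that element, on either strand. The Isg15 window is chr4:156200769-156201068 and the Bst2 window chr8:71537423-71537722.
Isg15: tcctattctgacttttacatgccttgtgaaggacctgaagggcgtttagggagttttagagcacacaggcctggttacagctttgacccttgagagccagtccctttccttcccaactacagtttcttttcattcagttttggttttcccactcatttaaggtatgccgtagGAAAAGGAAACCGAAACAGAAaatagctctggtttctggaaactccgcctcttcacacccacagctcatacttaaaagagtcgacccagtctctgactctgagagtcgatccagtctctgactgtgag
Bst2: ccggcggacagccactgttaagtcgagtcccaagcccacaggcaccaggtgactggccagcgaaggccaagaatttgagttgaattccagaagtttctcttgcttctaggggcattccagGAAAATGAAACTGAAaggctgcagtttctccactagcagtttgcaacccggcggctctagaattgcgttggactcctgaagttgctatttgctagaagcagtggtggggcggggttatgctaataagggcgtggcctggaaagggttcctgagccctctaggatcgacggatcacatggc
Isg15 has 3 overlapping matches, the first 78 bases before the start, and Bst2 has 2, the first 130 bases before it. Of the type I interferon response genes with a promoter in the table, 17 of 29 (58.6%) held the motif, as did 10 of 11 GTPase genes (90.9%). It was in 14.0% of the 930 promoters of genes that rose, in 6.17% of the 1800 promoters of genes that fell, in 6.71% of those not called and in 8.57% of all 27025 promoters.

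Isg15, a ubiquitin-like protein conjugated to targets after interferon, stood at 619.8, 382, 195, 361 and 428 FPKM in HO 1 to HO 5, against 59.3, 62.4, 106, 77.2 and 50.1 FPKM in WT 1 to WT 5 (log2 change 2.42, SE 0.29, adjusted p = 0.000118). Bst2, which tethers budding virions to the cell surface, was at 107, 105, 75.2, 142 and 87.9 FPKM in HO 1 to HO 5, against 32.7, 33.7, 38.4, 41.7 and 25.8 FPKM in WT 1 to WT 5 (log2 change 1.54, SE 0.18, adjusted p = 0.000105). Usp18 removes ISG15 from its targets and damps the type I interferon receptor; it was at 167, 119.9, 42.3, 118 and 102 FPKM in HO 1 to HO 5, against 7.54, 8.75, 16.2, 8.78 and 7.66 FPKM in WT 1 to WT 5 (log2 change 3.29, SE 0.33, adjusted p = 5.04e-05). For all 3 genes every HO library was above every WT library. HO 3 was the lowest HO library and WT 3 the highest WT library for Isg15 and Usp18. Slfn4 (2.89), Oas2 (2.89), Iigp1 (3.32) and Gbp5 (2.89) rose as well (log2 changes in brackets), with separate groups. Of 9 MHC class II genes tested 1 rose and none fell under every scaling, a share near that over all genes. Cd74, the class II invariant chain, was at 415 ± 215 FPKM in HO and 658 ± 114 FPKM in WT (SD, n = 5 each), and its call (log2 change -0.78, SE 0.28, adjusted p = 0.0385) was lost under other scalings and when any 1 library other than HO 3 or HO 4 was left out (adjusted p from 0.0508 to 0.0875).

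Of 29 genes of the JAK, STAT, IRF and SOCS list 14 rose and 1 fell; 12 and 9 were called higher without HO 1, HO 2 and HO 4 and without WT 1 and WT 2. Il4ra, the receptor subunit shared by interleukin-4 and interleukin-13, was at 64.7, 46.5, 47.6, 70.9 and 58.9 FPKM in HO 1 to HO 5, against 19.3, 21.03, 17.6, 15.4 and 21.5 FPKM in WT 1 to WT 5 (log2 change 1.55, SE 0.14, adjusted p = 3.27e-05), with no overlap between the groups. Socs3, the feedback inhibitor of gp130 receptors, was at 207, 66.9, 57.7, 171 and 133 FPKM in HO 1 to HO 5, against 14.4, 20.2, 14.5, 8.48 and 16.9 FPKM in WT 1 to WT 5 (log2 change 2.89, SE 0.36, adjusted p = 0.000148), and HO 2 and HO 3 were the lowest HO libraries. Socs1, the feedback inhibitor of interferon receptors, changed by 2.15 and the transducer gene Stat3 by 0.80; both had separate groups. Among chemokines and cytokines 12 of 23 rose and 2 fell. Of the 12, Ccl2 and Ccl7 passed the filter through the HO libraries only, so they had to be higher. Ccl2 (3.66), Cxcl10 (3.28) and Ccl12 (2.80), attractants of monocytes and T cells, were among the rises. Ccl28, an epithelial chemokine that draws IgA plasma cells to mucosa, fell: it was at 0.493, 0.179, 1.10, 0.592 and 1.80 FPKM in HO 1 to HO 5, against 16.3, 17.8, 17.4, 12.3 and 16.8 FPKM in WT 1 to WT 5 (log2 change -3.28, SE 0.21, adjusted p = 6.65e-06). Il18bp, the decoy that binds interleukin-18, rose to 25.6 ± 6.67 FPKM in HO and 6.20 ± 1.29 FPKM in WT (log2 change 1.87, SE 0.19, adjusted p = 5.04e-05). Without HO 1, HO 2 and HO 4, and likewise without WT 1 and WT 2, 7 of the 23 chemokines and cytokines were called higher.

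**Figure D2:**
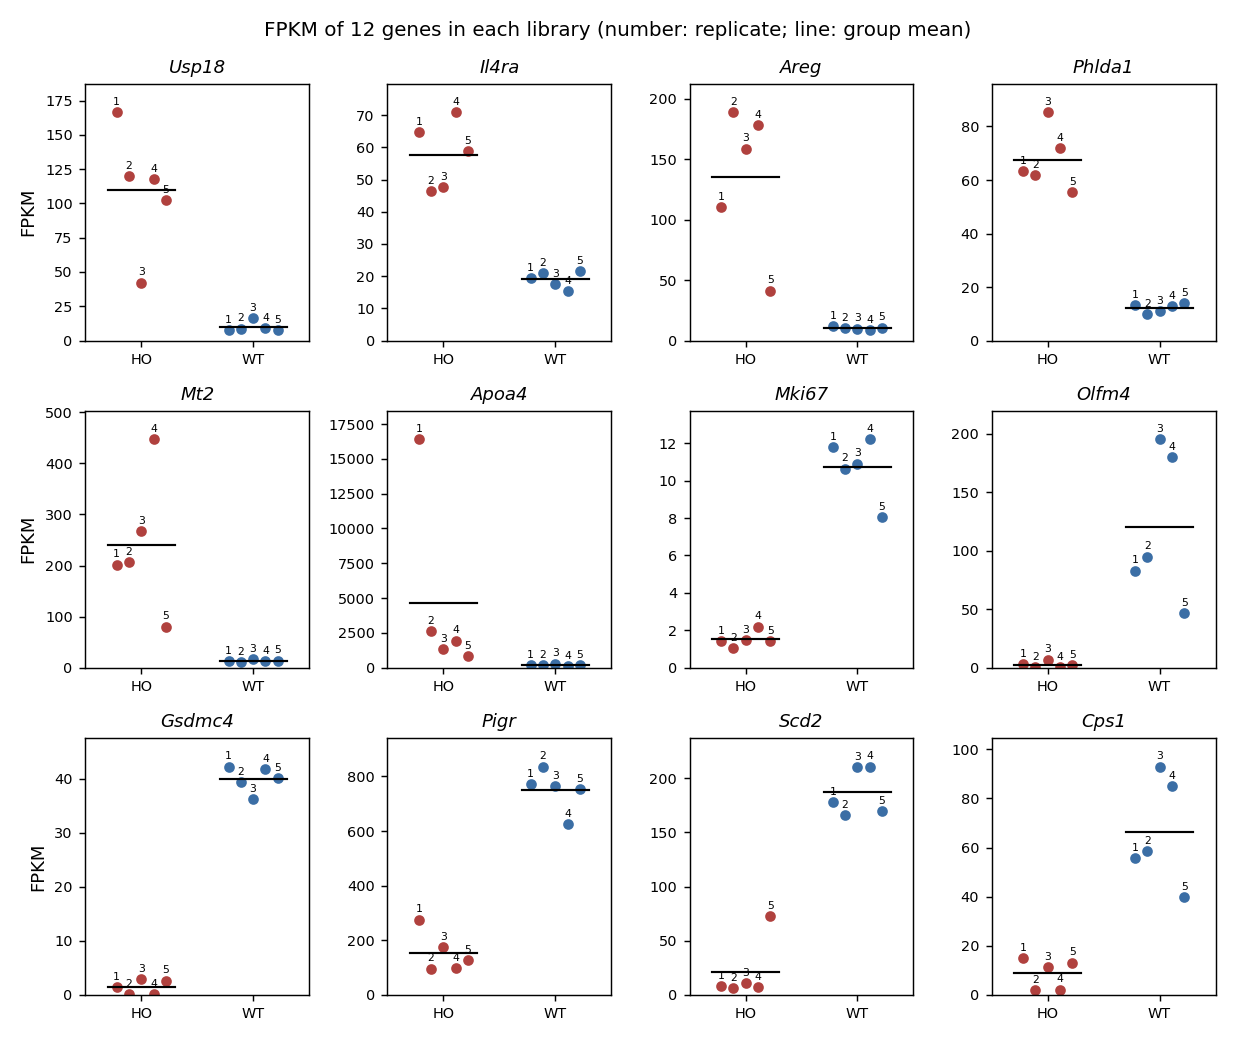
FPKM of 12 genes in the 5 HO and 5 WT libraries; each point is a library with its replicate number, and the line is the group mean. In none of the 12 do the groups overlap, Usp18 to Apoa4 being higher and Mki67 to Cps1 lower in HO, and HO 1 sets the Apoa4 mean.

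Genes of the TNF receptor and necroptosis machinery rose more often than they fell. Of 25 tested 13 rose and 1 fell, and 10 and 8 were called higher without HO 1, HO 2 and HO 4 and without WT 1 and WT 2. Tnf, 1 of the 13, passed the filter through the HO libraries only, so it had to be higher. Tnfrsf1a, the gene of TNF receptor 1, was at 232, 154, 151, 169.6 and 164 FPKM in HO 1 to HO 5, against 74.8, 82.5, 81.98, 76.3 and 81.8 FPKM in WT 1 to WT 5 (log2 change 1.10, SE 0.12, adjusted p = 8.99e-05). Mlkl, the pore-forming effector of necroptosis, was at 20.4, 13.6, 15.1, 19.1 and 20.6 FPKM in HO 1 to HO 5, against 6.95, 6.84, 8.89, 6.01 and 5.94 FPKM in WT 1 to WT 5 (log2 change 1.24, SE 0.14, adjusted p = 0.000112). Fadd, the adaptor that brings caspase-8 to death receptors, was the member that fell, at 3.10, 1.84, 3.49, 3.07 and 5.31 FPKM in HO 1 to HO 5, against 6.15, 5.77, 6.65, 7.60 and 6.04 FPKM in WT 1 to WT 5 (log2 change -0.81, SE 0.18, adjusted p = 0.00388). For each of these 3 genes the HO and WT libraries were separate. The gene of the catalytic subunit of the linear ubiquitin ligase, Rnf31 (0.63), rose as well. Of 19 genes on the TAK1 list, which holds Map3k7 itself and genes up- and downstream of it, 6 rose and 2 fell. Tab2 (0.59), Traf6 (0.72) and Mapk11 (1.01) rose, while Tab1 (-0.83) and the p38 alpha gene Mapk14 (-0.70) fell. Tab1 was at 3.17, 2.62, 3.21, 2.76 and 7.09 FPKM in HO 1 to HO 5, against 7.20, 7.11, 6.76, 7.55 and 6.86 FPKM in WT 1 to WT 5, and HO 5 lay within the WT range.

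Of 18 NF-kB genes 6 rose and none fell under every scaling. Rela rose to 19.1 ± 1.70 FPKM in HO and 12.8 ± 0.626 FPKM in WT (log2 change 0.55, SE 0.09, adjusted p = 0.000795), and the inhibitor gene Nfkbia, an NF-kB target, changed by 0.88. In the BCL2 family 5 of 16 rose and 1 fell. Bcl2l1, which encodes the anti-apoptotic BCL-XL, was at 31.7, 40.1, 33.7, 33.6 and 24.9 FPKM in HO 1 to HO 5, against 14.6, 15.03, 13.6, 12.5 and 14.3 FPKM in WT 1 to WT 5 (log2 change 1.16, SE 0.12, adjusted p = 6.97e-05), and the pro-apoptotic Pmaip1 (NOXA) changed by 1.54, both with separate groups. Bad, another pro-apoptotic gene, fell (-0.78). In the FPKM fit alone 2 members of the family were called higher without HO 1, HO 2 and HO 4, and 2 without WT 1 and WT 2. Of 18 p53 target genes 4 rose and 3 fell, against 11.2% and 20.2% over all genes. Ckap2, 1 of the 3 falls, passed the filter through the WT libraries only, so it had to be lower. Cdkn1a, the cell cycle inhibitor p21, was at 270.0, 410.2, 387, 386 and 320.1 FPKM in HO 1 to HO 5, against 195, 206, 198, 174 and 192 FPKM in WT 1 to WT 5 (log2 change 0.86, SE 0.13, adjusted p = 0.000413).

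Genes of pyroptosis fell in part and the executioner Gsdmd rose. Of 25 caspase, gasdermin and inflammasome genes 8 fell and 2 rose. The gasdermin C genes Gsdmc2, Gsdmc3 and Gsdmc4 lie within 1 stretch of chromosome 15 (63824328 to 63912319, GRCm38.p6) and fell. Gsdmc4 was at 1.46, 0.0769, 2.90, 0.172 and 2.65 FPKM in HO 1 to HO 5, against 42.3, 39.4, 36.2, 41.9 and 40.1 FPKM in WT 1 to WT 5 (log2 change -4.26, SE 0.34, adjusted p = 1.88e-05). Gsdmc2 (-3.17) and Gsdmc3 (-2.85) fell likewise; the 3 genes are close paralogs, and how reads shared between them were counted is not given, so their separate levels are uncertain. Pycard, the ASC adaptor that joins inflammasome sensors to caspase-1, was at 27.2, 5.98, 27.9, 8.73 and 27.8 FPKM in HO 1 to HO 5, against 110.5, 119.5, 98.3, 119 and 94.3 FPKM in WT 1 to WT 5 (log2 change -2.64, SE 0.39, adjusted p = 0.000425). HO 2 and HO 4 were the lowest for both genes. Gsdmd, whose pore releases interleukin-1, was at 417, 209.9, 241, 297 and 293 FPKM in HO 1 to HO 5, against 135, 153, 123, 106 and 125 FPKM in WT 1 to WT 5 (log2 change 1.15, SE 0.18, adjusted p = 0.000503), with HO 1 highest.

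Some of the ligands of the epidermal growth factor receptor (EGFR) and of the feedback genes of the MAP kinase pathway rose in HO. Of 22 members of that list 11 rose and none fell under every scaling, and 10 and 11 were called higher without HO 1, HO 2 and HO 4 and without WT 1 and WT 2. Areg, an EGFR ligand, was at 111, 189, 159, 178 and 41.3 FPKM in HO 1 to HO 5, against 12.0, 10.2, 9.77, 8.78 and 10.6 FPKM in WT 1 to WT 5 (log2 change 3.43, SE 0.35, adjusted p = 6.07e-05). Errfi1 encodes MIG6, which binds and inhibits EGFR, and changed by 2.21; Dusp6, a phosphatase of ERK, changed by 2.47. Phlda1, listed with the feedback genes, was at 63.3, 61.7, 85.3, 71.9 and 55.6 FPKM in HO 1 to HO 5, against 13.3, 9.73, 11.1, 12.9 and 13.9 FPKM in WT 1 to WT 5 (log2 change 2.37, SE 0.14, adjusted p = 6.47e-06), with a narrower spread than Areg. HO 5 was the lowest HO library for Areg, Phlda1 and Errfi1 and still above every WT library. Immediate early genes, the first to be transcribed after growth factor and stress signals, rose for 14 of 23 members; Egr1 was at 26.7 ± 5.47 FPKM in HO and 7.32 ± 2.03 FPKM in WT (log2 change 1.75, SE 0.20, adjusted p = 0.000112) and Junb changed by 1.01. Jun, their best known member, was at 74.5 ± 19.9 FPKM in HO and 72.7 ± 12.3 FPKM in WT and was not called. Of 32 genes of the fetal-like regenerative programme 15 rose and 2 fell. Of these 32, 9 and 10 were called higher without HO 1, HO 2 and HO 4 and without WT 1 and WT 2.

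Olfm4, a marker of stem cells of the small intestine, was at 3.15, 0.259, 6.88, 0.248 and 2.47 FPKM in HO 1 to HO 5, against 82.96, 94.9, 195, 179.8 and 46.98 FPKM in WT 1 to WT 5 (log2 change -5.24, SE 0.55, adjusted p = 6.56e-05). Lgr5, the receptor that defines these cells, was at 0.505, 0.826, 0.978, 0.730 and 0.736 FPKM in HO 1 to HO 5, against 1.63, 1.71, 2.69, 2.74 and 1.30 FPKM in WT 1 to WT 5, and Ascl2, their transcription factor, did not pass the filter, at 0.0311 to 0.188 FPKM in HO and 0.565 to 2.88 FPKM in WT libraries. For the 3 genes no HO library reached the lowest WT library, which was WT 5. Lgr5 passed the filter through the WT libraries only, so its groups had to be separate. Over the stem cell and Wnt target list 9 of 22 fell and 1 rose. Smoc2, which stromal cells also express, (14.6 ± 6.57 FPKM in HO and 11.8 ± 5.64 FPKM in WT) and the Wnt target Axin2 (13.7 ± 9.59 FPKM in HO and 16.8 ± 1.12 FPKM in WT) were not called; without HO 5 Axin2 was (-0.79, adjusted p = 0.00419).

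All 37 mitosis genes tested fell, with a median of -1.79 and separate groups in every case. All 37 were also called lower both without HO 1, HO 2 and HO 4 and without WT 1 and WT 2. Not every member was free to vary. Tpx2 (0.388 to 0.948 FPKM in HO and 3.702 to 5.385 FPKM in WT) passed the filter through the WT libraries only. Its groups therefore had to be separate. Mki67, a marker of cycling cells, was at 1.44, 1.05, 1.48, 2.20 and 1.41 FPKM in HO 1 to HO 5, against 11.8, 10.6, 10.9, 12.2 and 8.04 FPKM in WT 1 to WT 5 (log2 change -2.22, SE 0.14, adjusted p = 6.65e-06). Ccnb2, a cyclin of the G2/M transition, was at 1.92, 1.32, 2.61, 1.82 and 1.84 FPKM in HO 1 to HO 5, against 14.8, 16.1, 19.7, 18.5 and 11.6 FPKM in WT 1 to WT 5 (log2 change -2.55, SE 0.16, adjusted p = 6.47e-06). The HO libraries lay close together for both genes, and WT 5 was the lowest WT library. Cdca3 (-2.73) and Ccna2 (-2.68) were among the largest falls of the list. Of 44 DNA replication genes 40 fell and none rose, with a median of -1.0. Chaf1b, 1 of these falls, passed the filter through the WT libraries only, so it had to be lower. Tk1, thymidine kinase of S phase, was at 1.13 ± 0.483 FPKM in HO and 9.68 ± 1.90 FPKM in WT (log2 change -2.34, SE 0.19, adjusted p = 1.88e-05).

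The promoters of Ccnb2 and Mki67 are shown as the mitosis members with the smallest p that hold CCAAT, the box bound by NF-Y that is common in G2/M genes. Windows and source are as above, at chr9:70421505-70421804 and chr7:135716330-135716629, minus strand, with matches on either strand in capitals.
Ccnb2: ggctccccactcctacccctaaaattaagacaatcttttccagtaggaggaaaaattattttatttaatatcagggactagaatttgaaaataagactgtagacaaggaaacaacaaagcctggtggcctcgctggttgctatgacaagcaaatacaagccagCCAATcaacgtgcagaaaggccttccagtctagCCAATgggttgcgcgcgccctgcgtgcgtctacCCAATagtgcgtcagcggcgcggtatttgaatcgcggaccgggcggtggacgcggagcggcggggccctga
Mki67: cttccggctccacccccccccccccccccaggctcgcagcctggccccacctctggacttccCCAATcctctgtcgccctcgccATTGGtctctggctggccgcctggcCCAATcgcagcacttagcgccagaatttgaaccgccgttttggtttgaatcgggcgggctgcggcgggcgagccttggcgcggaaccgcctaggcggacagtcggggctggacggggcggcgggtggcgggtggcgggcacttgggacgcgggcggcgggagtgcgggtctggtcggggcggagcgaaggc
Each has 3 matches, the first 87 bases before the start in Ccnb2 and 188 bases before the start used for Mki67. The start used for Mki67 lies inside the RefSeq span of the gene (135689784 to 135716450), not at its end. CCAAT was in 77.4% of 31 mitosis promoters and 37.9% of all promoters. TTTGAA, a motif of cell cycle genes homology regions, was in 74.2% of those 31 and in 18.1% of all promoters; the search found it with no regard to its place in the window.

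Of 77 cytosolic ribosomal protein genes 76 fell, and the changes of all 77 lay within -1.31 to -0.695 on the log2 scale, with a median of -0.96 (-0.65 with median-of-ratios factors). HO 1, HO 2 and HO 5 had medians of -1.34, -1.19 and -1.02 over these genes, and HO 3 and HO 4 medians of -0.66 and -0.61. Of 57 ribosome biogenesis genes 20 fell and none rose, among them Dkc1 (-1.19), of the pseudouridylation complex, and Npm3 (-1.17). Of 30 heat shock chaperones 13 fell and 4 rose. The mitochondrial chaperonin genes Hspd1 (-1.47) and Hspe1 (-1.31) are neighbours on chromosome 1 that start back to back (55077833 to 55088243 and 55088148 to 55091317), and both fell. Hspb1, a small heat shock protein, was at 36.1, 106, 92.95, 148 and 34.2 FPKM in HO 1 to HO 5, against 5.65, 4.09, 14.1, 23.2 and 15.1 FPKM in WT 1 to WT 5 (log2 change 2.65, SE 0.51, adjusted p = 0.00176). Proteasome and oxidative phosphorylation genes depended on scaling: 22 of 31 proteasome genes were called lower in the FPKM fit and none under every scaling, and 67 of 76 respiratory chain genes were called lower and 13 under every scaling. Unfolded protein response genes were mixed, with 5 of 35 rising and 5 falling, shares near those over all genes.

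**Figure D3:**
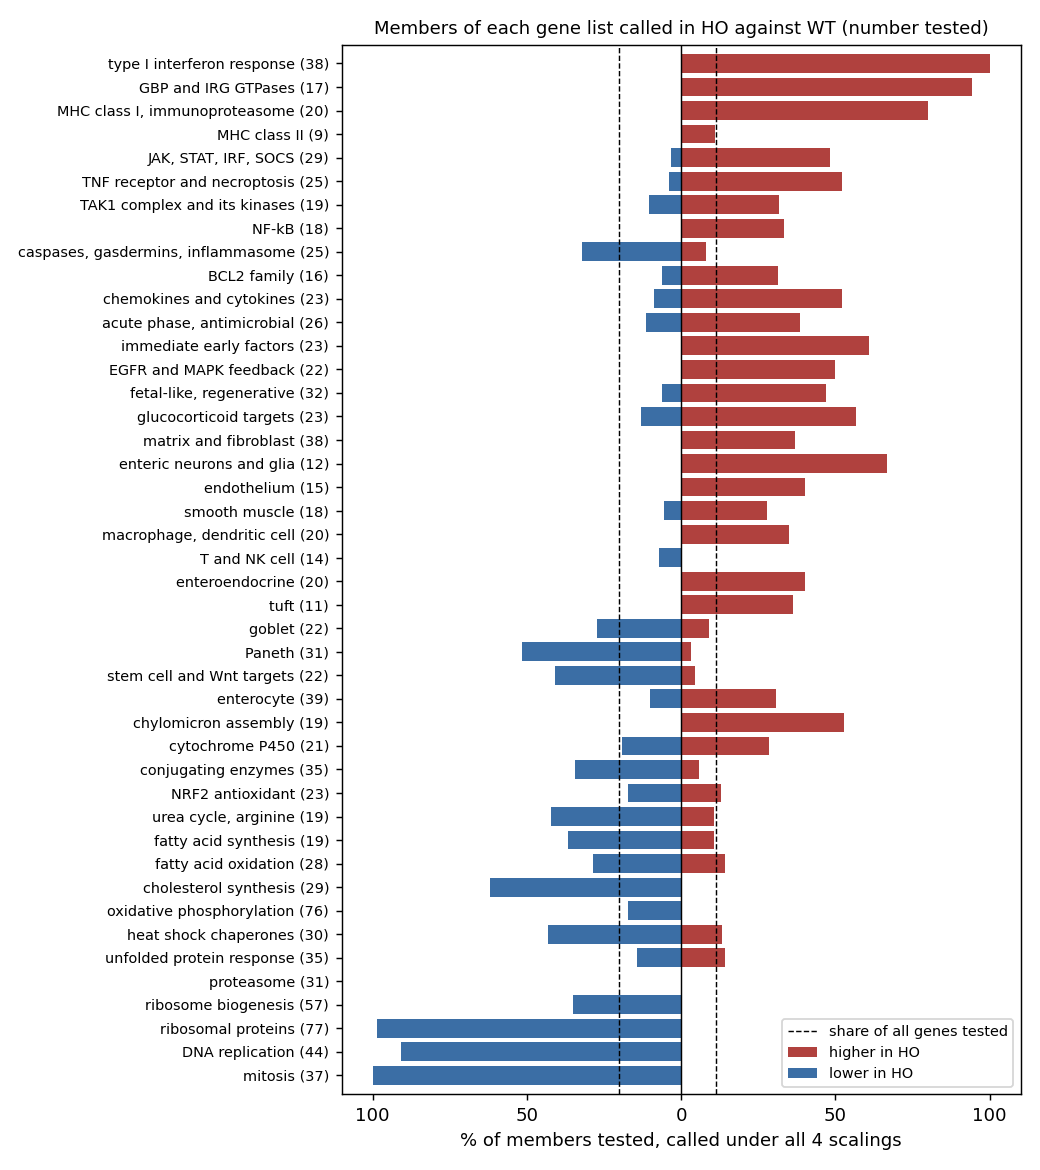
Bars give, for each gene list (number tested in brackets), the % of members called higher (right) or lower (left) in HO under all scalings; dashed lines mark 11.2% and 20.2%, the shares over all genes tested. Interferon response, GTPase, ribosomal protein, DNA replication and mitosis genes come closest to 100%.

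Paneth cell genes were lower in HO on average, but the groups overlapped: 16 of 31 fell, none with separate groups, and only 1 member was called lower without HO 1, HO 2 and HO 4. Lyz1, the Paneth cell lysozyme, was at 216, 287, 1218, 444 and 341 FPKM in HO 1 to HO 5, against 1605, 2392, 3863, 4075 and 837 FPKM in WT 1 to WT 5 (log2 change -2.42, SE 0.52, adjusted p = 0.00314), and WT 5 lay below HO 3. Itln1 (-2.06) and the defensin gene Defa24 (-1.89) showed the same order; the defensins are near-identical copies whose shared reads may have been split. Guca2b, which encodes uroguanylin and stood on the Paneth list, rose: it was at 1474, 803, 631, 457 and 664 FPKM in HO 1 to HO 5, against 185, 230.5, 269, 344 and 227 FPKM in WT 1 to WT 5 (log2 change 1.59, SE 0.28, adjusted p = 0.00105). In goblet cells 6 of 22 fell and 2 rose, shares near those over all genes, and 3 were called lower without HO 1, HO 2 and HO 4. The mucin gene Muc2 (146 ± 49.1 FPKM in HO and 120.0 ± 10.2 FPKM in WT) and the trefoil factor gene Tff3 (3061 ± 534 FPKM in HO and 2728 ± 175 FPKM in WT) were not called; without HO 1 Tff3 was (0.26, adjusted p = 0.0367). Muc2 was called higher without HO 1, HO 2 and HO 4 (0.58, adjusted p = 0.022) and with median-of-ratios factors (0.53, adjusted p = 0.0336). Zg16, a lectin of the mucus layer, rose, at 7188, 10450, 8940, 8508 and 9067 FPKM in HO 1 to HO 5, against 4765, 5026, 5824, 5881 and 5866 FPKM in WT 1 to WT 5 (log2 change 0.69, SE 0.12, adjusted p = 0.0013), and Spink4, a goblet cell protease inhibitor, fell, at 248, 256, 1042, 276 and 490.1 FPKM in HO 1 to HO 5, against 1357, 1377, 1731, 1492 and 1188 FPKM in WT 1 to WT 5 (log2 change -1.86, SE 0.35, adjusted p = 0.00162). Of 20 enteroendocrine genes 8 rose and none fell under every scaling, and without WT 1 and WT 2 the number called higher was 2. The hormone-processing protease gene Pcsk1 rose (1.32), with HO 2 and HO 4 highest, as did the hormone gene Sst (0.95). The hormone genes Nts (0.20, adjusted p = 0.608), Pyy (-0.12, adjusted p = 0.892) and Sct (-0.02, adjusted p = 0.963) were not called. Of 11 tuft cell genes 4 rose, and none was called without WT 1 and WT 2.

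Of 19 chylomicron assembly genes 10 rose and none fell, and 10 and 7 were called higher without HO 1, HO 2 and HO 4 and without WT 1 and WT 2; without WT 4 alone the count was 6. Apoa4, an apolipoprotein of chylomicrons, was at 16400, 2629, 1329, 1952 and 854 FPKM in HO 1 to HO 5, against 170.2, 189.5, 296, 132 and 191 FPKM in WT 1 to WT 5 (log2 change 3.71, SE 0.64, adjusted p = 0.001), and its change without HO 1 was 3.03. Mttp, which loads lipid onto apolipoprotein B, was at 747, 472, 362, 376 and 299 FPKM in HO 1 to HO 5, against 188, 202, 183, 147 and 169 FPKM in WT 1 to WT 5 (log2 change 1.27, SE 0.22, adjusted p = 0.000884). Creb3l3, a transcription factor that activates Apoa4, changed by 1.73 and Apob by 1.16, again with separate groups. Villin, a brush border protein (Vil1, 992 ± 82.95 FPKM in HO and 946 ± 72.1 FPKM in WT), was not called. Vdr, the vitamin D receptor, was at 21.5, 10.7, 23.7, 12.7 and 42.9 FPKM in HO 1 to HO 5, against 55.1, 56.6, 51.8, 61.3 and 66.8 FPKM in WT 1 to WT 5 (log2 change -1.50, SE 0.30, adjusted p = 0.00214). Cdx1 (-1.07) and Cdx2 (-1.11), which specify intestinal identity, and Nr5a2 (-2.07) fell, each with separate groups. They were chosen after their values were seen; Gata6 (0.52), another transcription factor gene of this epithelium, rose, with its call lost without HO 1, HO 2 and HO 4 (0.14, adjusted p = 0.295) and without WT 1 and WT 2 (0.53, adjusted p = 0.0711). Of the 39 genes on the enterocyte list 12 rose and 4 fell.

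Position markers were altered in more libraries than HO 1. Of 10 distal markers 5 fell and none rose, and 4 were called lower without HO 1, HO 2 and HO 4. Of 5 proximal markers tested 2 rose, Ada (1.31) and Apoa4 (3.71), and 2 fell, Slc40a1 (-2.27) and Slc5a4a (-1.22). Fabp1, the remaining marker, was not called (2.77, adjusted p = 0.108). It was at 5.81 to 11.6 FPKM in HO 2 to HO 5 and 2.65 to 4.49 FPKM in WT libraries. Without HO 1, HO 2 and HO 4 Fabp1 was called higher (1.39, adjusted p = 0.00171). The call of Ada was lost without HO 1, HO 2 and HO 4 (0.44, adjusted p = 0.324), without WT 1 and WT 2 (1.32, adjusted p = 0.0692) and without WT 3 (1.16, adjusted p = 0.0501). Osr2, a transcription factor gene, was at 7.89, 7.47, 19.97, 6.86 and 35.8 FPKM in HO 1 to HO 5, against 64.1, 63.2, 76.3, 79.8 and 70.5 FPKM in WT 1 to WT 5 (log2 change -2.40, SE 0.39, adjusted p = 0.000657), and Fabp6 at 0.0491, 1356, 4089, 3359 and 12970 FPKM in HO 1 to HO 5, against 8678, 10510, 11850, 8389 and 6935 FPKM in WT 1 to WT 5. Fabp6 in HO 5 was above every WT library and in HO 1 to HO 4 below every WT library, and the difference was not called (adjusted p = 0.163). Slc10a2, the ileal bile acid transporter, was not called either, at 7.83 FPKM in HO 1 and 322 to 900.5 FPKM in HO 2 to HO 5, against 169.6 to 321 FPKM in WT libraries; without HO 1 it was called higher (1.08, adjusted p = 0.0141).

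Of 29 genes of cholesterol synthesis and uptake 18 fell and none rose, with a median of -0.87, and 21 and 19 were called lower without HO 1, HO 2 and HO 4 and without WT 1 and WT 2. Mvd, mevalonate diphosphate decarboxylase, was at 10.9, 3.63, 10.7, 6.63 and 11.9 FPKM in HO 1 to HO 5, against 38.2, 38.1, 46.2, 43.7 and 36.4 FPKM in WT 1 to WT 5 (log2 change -2.18, SE 0.25, adjusted p = 0.00011), with every HO library below every WT library. Idi1 (-1.44), an isomerase of the pathway, and Insig1 (-1.30), a sterol-responsive regulator of it, fell with separate groups. The sterol exporter gene Abca1 was at 3.38 ± 1.25 FPKM in HO and 2.19 ± 0.277 FPKM in WT and was not called (adjusted p = 0.108; 0.00408 without HO 3). Of 19 fatty acid synthesis genes 7 fell and 2 rose. Scd2, a stearoyl-CoA desaturase, was at 8.44, 6.03, 10.7, 6.83 and 72.5 FPKM in HO 1 to HO 5, against 178, 166, 211, 211 and 169.9 FPKM in WT 1 to WT 5 (log2 change -3.79, SE 0.54, adjusted p = 0.000332), and HO 5 lay between the other HO libraries and WT; without HO 5 the change was -4.40. Fads2 (-2.61) and Fasn (-1.55) fell as well. In fatty acid oxidation and ketogenesis 8 of 28 fell and 4 rose, against 20.2% and 11.2% over all genes. Pdk4, the kinase that shuts pyruvate out of the citric acid cycle, was at 16.7, 31.2, 7.46, 22.6 and 8.60 FPKM in HO 1 to HO 5, against 0.468, 0.329, 1.52, 1.64 and 1.46 FPKM in WT 1 to WT 5 (log2 change 3.01, SE 0.37, adjusted p = 0.000145).

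Nitrogen and detoxification genes went both ways. Of 19 urea cycle and arginine genes 8 fell and 2 rose. Cps1, carbamoyl phosphate synthetase, was at 14.9, 1.87, 11.4, 2.16 and 13.1 FPKM in HO 1 to HO 5, against 55.7, 58.6, 92.98, 85.1 and 39.96 FPKM in WT 1 to WT 5 (log2 change -3.09, SE 0.50, adjusted p = 0.00072). Otc (-1.99) and Oat (-2.09), which act with it in citrulline synthesis, fell too, with separate groups. Of 35 conjugating enzyme genes 12 fell and 2 rose, and of 21 cytochrome P450 genes 4 fell and 6 rose. Among these falls, Ces1e and Cyp2u1 passed the filter through the WT libraries only, so they had to be lower. Cyp2c55 was at 0.290, 0.663, 1.69, 1.11 and 10.6 FPKM in HO 1 to HO 5, against 15.6, 44.2, 76.2, 109 and 37.4 FPKM in WT 1 to WT 5 (log2 change -4.14, SE 0.62, adjusted p = 0.000443), while Cyp4b1 was at 197, 74.1, 48.8, 68.9 and 55.2 FPKM in HO 1 to HO 5, against 12.7, 11.6, 17.6, 20.1 and 15.2 FPKM in WT 1 to WT 5 (log2 change 2.28, SE 0.33, adjusted p = 0.000372). HO 1, the library with proximal transcripts, was the highest for Cyp4b1, and the change without it was 1.94. Of 23 NRF2 and antioxidant genes 4 fell and 3 rose, shares near those over all genes. The quinone reductase gene Nqo1 fell (-1.54), while Hmox1 (1.23), heme oxygenase, and Gpx3 (1.44), a glutathione peroxidase, rose.

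Metal and glucocorticoid-responsive genes included some of the largest rises. The metallothionein genes Mt1 and Mt2 lie side by side on chromosome 8 (94172618 to 94180327); Mt2 was at 202, 206, 268, 447 and 80.5 FPKM in HO 1 to HO 5, against 13.04, 10.6, 16.2, 12.5 and 13.9 FPKM in WT 1 to WT 5 (log2 change 3.89, SE 0.35, adjusted p = 3.24e-05), and Mt1 changed by 2.29. HO 4 was highest and HO 5 lowest for both. Among iron genes 6 of 18 fell and 3 rose. Steap3, among the falls, passed the filter through the WT libraries only, and Steap4, among the rises, through the HO libraries only. Both therefore had to differ in that direction. Tfrc, the transferrin receptor, was at 5.67, 5.06, 8.91, 3.71 and 8.25 FPKM in HO 1 to HO 5, against 36.5, 31.6, 33.2, 29.02 and 32.6 FPKM in WT 1 to WT 5 (log2 change -2.25, SE 0.19, adjusted p = 2.16e-05), and the iron exporter ferroportin, Slc40a1, was at 0.919, 9.84, 3.89, 6.13 and 9.82 FPKM in HO 1 to HO 5, against 31.9, 41.7, 21.8, 21.6 and 27.1 FPKM in WT 1 to WT 5 (log2 change -2.27, SE 0.43, adjusted p = 0.00152). Of 23 glucocorticoid target genes 13 rose and 3 fell, and 9 and 11 were called higher without HO 1, HO 2 and HO 4 and without WT 1 and WT 2. Mt1, Mt2, Pdk4 and Errfi1, given with other lists, are members of this list too. Fkbp5 (0.90, adjusted p = 0.0605), Sgk1 (adjusted p = 0.142) and Angptl4 (adjusted p = 0.679) were not called. Fkbp5 was at 16.95 FPKM in HO 5, below every WT library. Cebpd, a transcription factor also induced by cytokines, was at 65.5, 68.8, 68.0, 149 and 50.8 FPKM in HO 1 to HO 5, against 11.5, 12.4, 11.4, 9.19 and 10.6 FPKM in WT 1 to WT 5 (log2 change 2.66, SE 0.24, adjusted p = 2.92e-05). Hsd11b2, which inactivates corticosterone in the epithelium, fell, at 0.501, 0.633, 5.21, 0.765 and 5.16 FPKM in HO 1 to HO 5, against 12.96, 12.7, 14.7, 18.7 and 17.3 FPKM in WT 1 to WT 5 (log2 change -2.54, SE 0.42, adjusted p = 0.000746). Among 32 genes of glycolysis and hypoxia 10 rose and 4 fell: Hif1a was at 60.1 ± 21.7 FPKM in HO and 17.7 ± 1.94 FPKM in WT (log2 change 1.63, SE 0.24, adjusted p = 0.000444), hexokinase 2 (Hk2) changed by 1.68 and Vegfa by 1.08, whereas Ankrd37 fell (-2.39).

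Summed markers of smooth muscle and of neurons and glia were higher in HO 2 to HO 5 than in any WT library. Their level also varied among WT libraries. The fibroblast markers Pdgfra, Dcn, Col1a1 and Col1a2 overlapped between groups, with sums of 50.7 to 182 FPKM in HO and 55.8 to 162 FPKM in WT libraries. The smooth muscle markers Des, Myh11, Actg2 and Cnn1 summed to 217 to 829 FPKM in HO and 71.8 to 518 FPKM in WT libraries, and the neuron and glia markers Tubb3, Elavl4 and S100b summed to 6.07 to 21.3 FPKM in HO and 1.53 to 8.69 FPKM in WT libraries. Of 18 smooth muscle genes 5 rose and 1 fell. The number called higher was 10 without HO 1, 9 without WT 4, 3 without HO 2, HO 3, HO 4, WT 1 or WT 2 in turn, and 0 without WT 1 and WT 2 together. Of 38 matrix and fibroblast genes 14 rose and none fell under every scaling, and 8 were called higher without WT 1 and WT 2. Mmp3, 1 of the rises, passed the filter through the HO libraries only, so it had to be higher. Thbs1, a matrix glycoprotein, was at 28.8, 43.98, 30.1, 55.6 and 21.5 FPKM in HO 1 to HO 5, against 3.26, 2.96, 4.72, 5.24 and 3.72 FPKM in WT 1 to WT 5 (log2 change 2.84, SE 0.24, adjusted p = 2.14e-05), and Timp1, an inhibitor of matrix metalloproteinases, was at 8.83, 5.29, 8.58, 9.57 and 5.20 FPKM in HO 1 to HO 5, against 0.489, 0.493, 1.34, 1.69 and 1.05 FPKM in WT 1 to WT 5 (log2 change 2.08, SE 0.22, adjusted p = 6.58e-05). Collagen I (Col1a1, 10.5 ± 3.62 FPKM in HO and 11.2 ± 4.63 FPKM in WT) was not called. Kcnj8 (2.87), a potassium channel of vessel mural cells and smooth muscle, rose too, with separate groups. Acta1, skeletal muscle actin, fell, at 1.50, 3.14, 8.44, 5.12 and 4.37 FPKM in HO 1 to HO 5, against 37.5, 25.8, 53.1, 82.3 and 60.99 FPKM in WT 1 to WT 5 (log2 change -3.29, SE 0.37, adjusted p = 9.24e-05). The part of muscle and nerve content in these differences was not tested.

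Immune cell transcripts gave no single direction. The neutrophil markers S100a8, S100a9, Ly6g and Csf3r summed to 2.25 to 28.6 FPKM in HO and 0.34 to 0.941 FPKM in WT libraries; S100a9 was at 0 in WT 1 and WT 5, S100a8 at 0 in WT 4 and Ly6g at 0 in WT 5. Ly6g was at 1.47, 23.1, 9.08, 17.2 and 1.59 FPKM in HO 1 to HO 5, against 0.137, 0.0276, 0.0272, 0.0536 and 0 FPKM in WT 1 to WT 5, so it passed the filter through the HO libraries only. Cd177, also known as a neutrophil antigen, was at 0.356, 0.204, 0.269, 0.101 and 0.0737 FPKM in HO 1 to HO 5, against 4.19, 4.93, 5.42, 3.53 and 3.05 FPKM in WT 1 to WT 5, and Ceacam10 was at 0.294 ± 0.313 FPKM in HO and 5.86 ± 1.20 FPKM in WT. Both passed the filter through the WT libraries only. The macrophage markers Cd68, Adgre1, C1qa and Csf1r summed to 49.9 to 175 FPKM in HO and 48.2 to 84.3 FPKM in WT libraries, and 7 of 20 macrophage and dendritic cell genes rose, none with separate groups. The number called higher ran from 2 to 13 when single libraries were left out. It was highest without HO 5 and lowest without HO 3, HO 4, WT 1 or WT 5. Of 14 T and NK cell genes none rose and 1 fell, Ccr9. It was at 0.450 to 0.990 FPKM in HO and 1.16 to 1.67 FPKM in WT libraries. Ccr9 passed the filter through the WT libraries only, so it had to be lower. The joining chain gene of IgA, Jchain (358 ± 115 FPKM in HO and 473 ± 58.2 FPKM in WT), was not called, but was called lower without HO 1, HO 2 and HO 4 (-0.88, adjusted p = 0.0491). Pigr, the epithelial receptor that carries IgA into the lumen, was at 276, 96.04, 175, 97.1 and 126 FPKM in HO 1 to HO 5, against 771, 836, 764, 624 and 754 FPKM in WT 1 to WT 5 (log2 change -2.39, SE 0.26, adjusted p = 8.06e-05).

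HO libraries varied more than WT libraries. The median within-group SD over genes was 0.294 in HO and 0.14 in WT on the log2 scale, and 0.255 in HO without HO 1. The SD was larger in HO for 86.6% of genes. Over the genes that rose, the median difference from the WT mean was 1.14 in HO 4, 0.90 in HO 2, 0.78 in HO 3, 0.69 in HO 1 and 0.56 in HO 5. Over the genes that fell it was -1.13 in HO 2, -0.97 in HO 1, -0.83 in HO 4, -0.71 in HO 5 and -0.68 in HO 3. Without HO 1, HO 2 and HO 4 the calls of Lyz1, Itln1, Defa24, Tab1, Traf6 and Nfkbia were lost. The log2 changes of these genes were then -1.76 for Lyz1, -1.44 for Itln1, -1.23 for Defa24, -0.47 for Tab1, 0.63 for Traf6 and 0.47 for Nfkbia. Many calls that held moved by more than 1.5 times without those 3 libraries: Fadd changed by -0.48, Pmaip1 by 0.73, Spink4 by -0.99, Pcsk1 by 0.65, Creb3l3 by 1.11, Apob by 0.52, Vdr by -0.84, Cdx1 by -0.49, Cdx2 by -0.60, Nr5a2 by -1.31, Osr2 by -1.36, Fads2 by -1.57, Nqo1 by -0.79, Hsd11b2 by -1.38 and Hif1a by 1.02. Rnf31 (0.55), Traf6 (0.67) and the trehalase gene Treh (1.08) were not called without WT 1 and WT 2. The genes that rose or fell were chosen on the same libraries, so the medians describe the order of the libraries and test nothing. HO 5 had an interferon response median of 1.67, the highest of the HO libraries, together with a glucocorticoid target median of 0.10, the lowest. HO 3 had the lowest interferon response median, at 0.88.

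**Figure D4:**
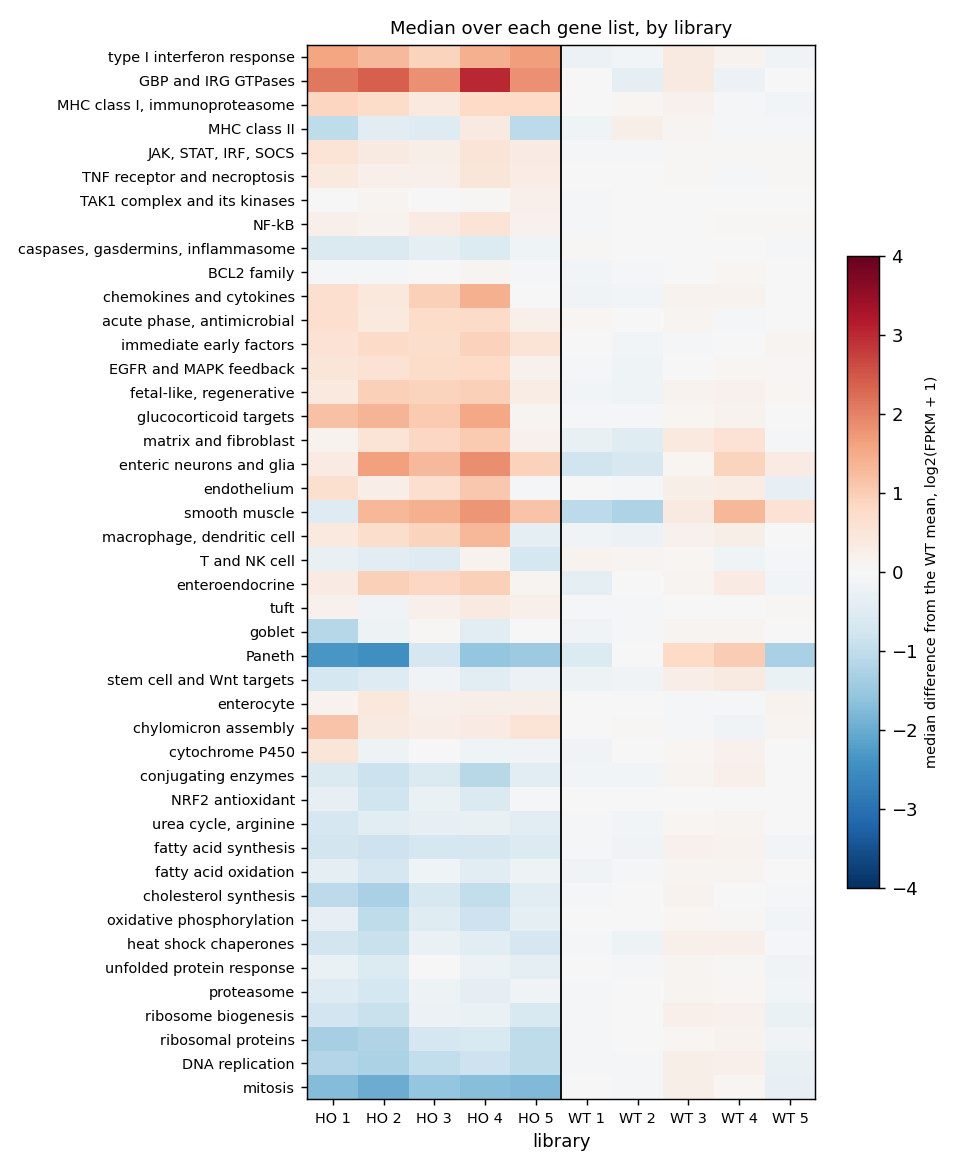
Colour gives the median difference from the WT mean over each gene list (rows) in each library (columns, 5 HO then 5 WT), in log2(FPKM + 1). The interferon response row ranges from 0.88 to 1.67 and the mitosis row from -1.97 to -1.54 in HO libraries, while the Paneth, smooth muscle and neuron rows vary within WT as well.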

How the data were processed

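Whole ileum in 5 HO and 5 WT libraries was analysed from 1 deposited table of 25329 gene symbols. Per the submitters' processing notes the authors used fastp, HISAT2, HTSeq and the mm10 genome; versions, settings, strand handling and the annotation are not given in the sources used here. The unit of the deposited values was read from the values as FPKM, which corrects for gene length and library total but not for a shift shared by many genes. The values came out as whole reads (within 0.02 of a read) times a step set by gene and library, so reads and depths were recovered. The reads carry no molecular identifiers, and precision at a given depth covers counting error only.

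Changes are HO minus WT means of log2(FPKM + 1), with standard errors (SE) and two-sided p-values from limma-trend with robust moderation (limma 3.58.1, R 4.3.3), fitted over the 10 libraries and adjusted by Benjamini-Hochberg over the 10972 genes tested. The added 1 FPKM draws the changes of low genes toward 0. A gene with separate groups has every HO library on 1 side of every WT library. Nothing in the labels says that the libraries are unpaired or paired, or that they came from separate mice, so p-values measure the spread between these libraries. The workflow was run on simulated data that gave both groups the WT spread and changed few genes. The libraries here have more spread in HO and many more changes, so that run does not measure the accuracy of these calls. Alternatives were median-of-ratios and quantile scaling, limma-voom on recovered reads, other filters and pseudocounts, all 15 libraries, array weights and left-out libraries. Positions and promoters come from RefSeq (GRCm38.p6), matched by symbol: 10955 genes tested had a position and 8806 a promoter; the motif was searched on both strands.

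The comparison and the 60 gene lists were chosen with earlier results of these data known, and no list was tested as a set. Genes were named by a rule: the TNF and TAK1 lists, the 20 largest rises and 20 largest falls with separate groups and at least 5 FPKM in the higher group, up to 5 called and 3 uncalled members of each list, cell type markers and genes of printed promoters; not every gene the rule reached is given. Gsdmd, Cdx1, Cdx2, Nr5a2 and Hsd11b2 were named after their values were seen. Some genes and markers are not reported here.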

Additional observations from a re-analysis of the deposited data

Results flagged for a closer look

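Of the genes named in the text, 153 were examined within the 5 HO and the 5 WT libraries on the log2(FPKM + 1) scale. In 24 of 306 groups, over 153 genes, the highest or lowest library lay farther from its nearest neighbour than 0.71 of the range of the 5. Chance gives such a gap in about 1 in 20 groups.

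Ace was at 385 FPKM in HO 1 and 69.1 to 84.99 FPKM in the other HO libraries. Actg2 was at 95.8 FPKM in HO 1 and 263 to 353 FPKM in the other HO libraries. Cebpd was at 149 FPKM in HO 4 and 50.8 to 68.8 FPKM in the other HO libraries. Fabp1 was at 2504 FPKM in HO 1 and 5.81 to 11.6 FPKM in the other HO libraries. Fabp6 was at 0.0491 FPKM in HO 1 and 1356 to 12970 FPKM in the other HO libraries. Hmox1 was at 2.22 FPKM in HO 5 and 4.38 to 5.47 FPKM in the other HO libraries. Jchain was at 163 FPKM in HO 5 and 368 to 465 FPKM in the other HO libraries. Map3k7 was at 6.88 FPKM in HO 1 and 8.63 to 9.41 FPKM in the other HO libraries. Myh11 was at 22.5 FPKM in HO 1 and 78.5 to 104 FPKM in the other HO libraries. Scd2 was at 72.5 FPKM in HO 5 and 6.03 to 10.7 FPKM in the other HO libraries. Slc10a2 was at 7.83 FPKM in HO 1 and 322 to 900.5 FPKM in the other HO libraries. Tab1 was at 7.09 FPKM in HO 5 and 2.62 to 3.21 FPKM in the other HO libraries. Tnfrsf1a was at 232 FPKM in HO 1 and 151 to 169.6 FPKM in the other HO libraries. Treh was at 212 FPKM in HO 1 and 56.95 to 78.5 FPKM in the other HO libraries.

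Ccl12 was at 2.04 FPKM in WT 3 and 0.609 to 0.867 FPKM in the other WT libraries. Ccl28 was at 12.3 FPKM in WT 4 and 16.3 to 17.8 FPKM in the other WT libraries. Cdh1 was at 230.5 FPKM in WT 5 and 210.5 to 216 FPKM in the other WT libraries. Ceacam10 was at 7.96 FPKM in WT 2 and 5.02 to 5.68 FPKM in the other WT libraries. Gsdmc2 was at 12.5 FPKM in WT 1 and 9.80 to 10.5 FPKM in the other WT libraries. Tab2 was at 10.2 FPKM in WT 2 and 8.95 to 9.20 FPKM in the other WT libraries. Tk1 was at 6.48 FPKM in WT 5 and 9.86 to 11.5 FPKM in the other WT libraries. Traf6 was at 4.53 FPKM in WT 1 and 5.37 to 5.63 FPKM in the other WT libraries. Treh was at 29.6 FPKM in WT 1 and 37.9 to 39.5 FPKM in the other WT libraries. Usp18 was at 16.2 FPKM in WT 3 and 7.54 to 8.78 FPKM in the other WT libraries. The cause of these single-library values was not tested.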

How the results depend on the processing

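No paired analysis was possible because the labels give no replicate numbers or pairing for these libraries. Genes called higher and lower numbered 1240 and 4368. They numbered 745 and 2863 with a filter of 5 FPKM, which tested 6619 genes, 698 and 2868 at an adjusted p under 0.01, and 446 and 828 at 2-fold or more. The split was 2440 and 2289 with median-of-ratios FPKM, 2198 and 2734 with quantile normalization and 2423 and 2327 with voom on reads and median-of-ratios factors. Without WT 1 and WT 2, 663 genes were called higher. Leaving out 1 library at a time gave 940 to 1582 higher and 3646 to 4750 lower, and for Map3k7 changes of -0.2688 to -0.1658. Map3k7 passed the test with all 15 libraries (-0.2376, adjusted p = 0.0417) and reversed with median-of-ratios (0.0453), quantile (0.02) and voom with median-of-ratios (0.05). Pseudocount 0.1, no filter, all 15 libraries, array weights, voom on library totals and the fit without HO 1, HO 2 and HO 4 kept both counts within 1.5 times.

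Over the named genes followed through the alternatives, 3062 values kept direction and call, 62 lost the call, 38 gained it and 34 reversed. Reversals without HO 1, HO 2 and HO 4 were Axin2 (0.2093), Cd79a (-0.3374), Col1a1 (0.2212), Jun (-0.157), Slc10a2 (0.8543) and Smoc2 (-0.0305), and without WT 1 and WT 2 Csf1r (-0.0621), Jun (-0.0061) and Smoc2 (-0.0195). With median-of-ratios they were Col1a1 (0.2253), Epcam (0.1188) and Slc10a2 (0.2173), with voom and median-of-ratios Col1a1 (0.2523), Epcam (0.1189) and Slc10a2 (0.1776), with quantile normalization Col1a1 (0.1792) and Slc10a2 (0.0616), and with array weights Col1a1 (0.3801) and Slc10a2 (0.6092). Leaving out 1 library gave -0.2269 to 0.1019 for Col1a1, -0.1144 to 0.1165 for Jun and -0.5928 to 1.0755 for Slc10a2. The cause of these changes was not tested. Depth was near equal in the 10 libraries, and counting error is relatively larger for genes near the 1 FPKM filter.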

Other observations

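Acute phase and antimicrobial genes rose for 10 of 26 members and fell for 3. Serpina3n, a secreted protease inhibitor, was at 38.3, 49.6, 67.4, 109 and 12.6 FPKM in HO 1 to HO 5, against 0.989, 0.962, 2.81, 4.90 and 1.11 FPKM in WT 1 to WT 5 (log2 change 4.01, SE 0.51, adjusted p = 0.000181), with every HO library above every WT library. The haptoglobin gene Hp (2.11), whose product binds free hemoglobin, rose with separate groups. The metalloreductase gene Steap4 (1.95) rose too, but passed the filter through the HO libraries only, so its groups had to be separate. Of 16 circadian clock genes 2 rose, a share near that over all genes, and 1 fell. The rises were Per1 (0.79) and Nfil3 (0.75), and the fall was Per2 (-0.78, adjusted p = 0.000625), with separate groups.

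Surface genes of the epithelium were mixed. Of 19 brush border hydrolases 6 rose and none fell, among them trehalase (Treh, 1.15) and the peptidase gene Ace (1.38). The call of Treh was lost without WT 1 and WT 2 (1.08, adjusted p = 0.0544). Without WT 1 and WT 2 the number called higher was 3, and without HO 1, HO 2 and HO 4 it was 9. Without HO 1, HO 3 or WT 4 in turn 1 hydrolase was called lower. Ace was at 385, 69.1, 82.98, 84.99 and 79.9 FPKM in HO 1 to HO 5, against 40.97, 49.7, 38.6, 36.1 and 41.2 FPKM in WT 1 to WT 5, and its change without HO 1 was 0.93. The amino acid transporter gene Slc6a19 rose, at 446, 777, 526, 496 and 447 FPKM in HO 1 to HO 5, against 269, 254, 222, 200.1 and 283 FPKM in WT 1 to WT 5 (log2 change 1.11, SE 0.17, adjusted p = 0.000444). Of 26 junction genes 5 rose and 5 fell, against 11.2% and 20.2% over all genes. The number called higher was 3 without HO 2, WT 3, WT 4 or WT 5 in turn and 2 without WT 1 or WT 2. The intestinal cadherin gene Cdh17 was at 739 ± 46.6 FPKM in HO and 539 ± 26.04 FPKM in WT (log2 change 0.45, SE 0.09, adjusted p = 0.00216), and the tight junction scaffold gene Tjp3 was at 25.1, 12.5, 27.1, 16.3 and 45.4 FPKM in HO 1 to HO 5, against 66.6, 68.7, 63.4, 71.3 and 73.2 FPKM in WT 1 to WT 5 (log2 change -1.53, SE 0.27, adjusted p = 0.00113). Cldn8, a claudin, fell (-1.74). Without HO 1, HO 2 and HO 4 the changes were -0.94 for Tjp3 and -0.97 for Cldn8.

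Among the largest rises and falls were genes on none of the lists. Gm31235 (3.33) and the potassium channel subunit gene Kcne4 (3.14) rose. The gene 1810065E05Rik (-4.38), Fgfbp1 (-3.52), Tppp (-2.88), Clca3b (-2.93), Akr1c14 (-2.85) and the potassium channel subunit gene Kcne3 (-2.75) fell, all with separate groups. Fgfbp1 was at 0.906, 1.15, 10.6, 1.83 and 15.8 FPKM in HO 1 to HO 5, against 44.8, 52.9, 62.6, 61.3 and 44.8 FPKM in WT 1 to WT 5, with HO 3 and HO 5 nearest to WT. Without HO 1, HO 2 and HO 4 the changes were -1.94 for Fgfbp1 and -2.40 for 1810065E05Rik.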
